A study of Homo sapiens with 6 samples.

Results

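Transcripts of 9 genes central to Alzheimer disease were followed after knockdown of PSF, an RNA-binding protein of the nucleus encoded by SFPQ. The 9 genes were taken by symbol from a fixed list: the amyloid precursor protein gene APP, its relatives APLP1 and APLP2, the protease genes BACE1, ADAM10 and PSEN2, the tau gene MAPT, the sorting receptor gene SORL1 and the clusterin gene CLU. All 9 were among the 21301 genes of the deposited table and among the 19694 that passed the filter on low counts. SH-SY5Y cells, a human neuroblastoma line used as a model of neurons, were exposed for 72 h to siControl (3 libraries) or to siPSF at 10 nM (3 libraries), both as small interfering RNAs. The cells carried no other modification that the labels name, and the untreated parental line, other neuronal lines and brain tissue were not analysed here. The study describes the 3 libraries of a group as biological replicates, and it used 1 of its siRNAs to PSF (#2) for them, so the data do not separate loss of PSF from other effects of that siRNA.

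APP is a membrane protein that is cut in competing ways. ADAM10, the main alpha-secretase of neurons, cuts within the amyloid-beta stretch, whereas BACE1, the beta-secretase, cuts at its start, and gamma-secretase, whose catalytic subunit is a presenilin such as PSEN2, then releases the amyloid-beta peptide from the membrane. SORL1 carries APP away from the compartments in which BACE1 cuts it, and clusterin is a secreted chaperone that binds amyloid-beta. Tau, the product of MAPT, binds axonal microtubules and forms the neurofibrillary tangles of the disease.

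The stretch that makes APP differ from its relatives is the amyloid-beta coding sequence, shown here because neither APLP1 nor APLP2 holds its start and because the cuts made by the proteases described below fall in or beside it. In the reference transcript of APP it covers 42 codons (672 to 713 of 770), on the minus strand of chr21:25897573-25897623 (exon 16 of 18) and chr21:25891794-25891868 (exon 17), GRCh38. Capitals mark the first 2 codons after the beta cut, the 2 codons on either side of the alpha cut, and the last 3 codons, in which the gamma-secretase cuts that end the peptide usually fall.
APP amyloid-beta stretch: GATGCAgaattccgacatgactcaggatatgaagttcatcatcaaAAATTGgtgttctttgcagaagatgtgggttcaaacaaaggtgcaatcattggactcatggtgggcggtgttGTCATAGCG

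The end of the cytoplasmic tail is what the family shares, and its NPTY motif is the landing site of the adaptors of the APBA and APBB families, whose transcripts are described below. Capitals mark the 12 bases that encode NPTY. The stretches lie at chr21:25881688-25881717 (minus strand, exon 18 of 18) for APP, at chr19:35879397-35879426 (plus strand, exon 17 of 17) for APLP1 and at chr11:130143401-130143430 (plus strand, exon 17 of 17) for APLP2. All were read from the GENCODE transcripts on GRCh38.
APP: ggctacgaaAATCCAACCTACaagttcttt
APLP1: ggctatgagAACCCCACTTACcgcttcctg
APLP2: ggctatgagAACCCCACCTACaaatacctg
APP matched APLP1 at 20 of 30 bases and APLP2 at 22 of 30, and APLP1 matched APLP2 at 25 of 30. Within the motif APP matched APLP1 at 9 of 12 bases and APLP2 at 10 of 12.

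Library totals ran from 101540520 to 132420931 counts. Levels within a gene are given as TMM-scaled CPM, the count relative to the library's total, and levels between genes as the deposited FPKM, which divides by exon length. SFPQ (gene ID 6421) stood at 372, 356 and 401.5 CPM in siControl and at 209, 193 and 165 CPM in siPSF, so that 50.2% of the control level was left (log2 fold change -0.99, standard error 0.0996, edgeR quasi-likelihood test with Benjamini-Hochberg adjustment, adjusted p = 9.5e-05). It was lowest in siPSF replicate 3. In both groups replicate 3 lay farthest from the other libraries, with a chi-square per degree of freedom of 54.42 to 61.19 against 33.53 between the other siControl libraries and 20.81 between the other siPSF libraries. Of 10 markers of noradrenergic neuroblastoma, all 10 were tested, with a summed level of 4600 to 5320 CPM in siControl and 4000 to 5110 CPM in siPSF. Of these markers GATA3 was called higher, DBH and TH were called lower, and TH was under 1 CPM. Of 6 myeloid markers 2 were in the table, with sums of 2.31 to 3.13 and 2.62 to 3.43 CPM. Of 5 astrocyte markers 3 were there, with sums of 3.57 to 4.84 CPM in siControl and of 3.47 CPM, rounded, in each siPSF library, SLC1A2 being called lower, and of 5 oligodendrocyte markers only CNP (104 to 113 and 99.8 to 117 CPM). The 6 fibroblast markers summed to 60.6 to 72.6 CPM in siControl and to 43.5 to 48.0 CPM in siPSF, with COL3A1 and PDGFRA called lower. The part of these shifts in the results below was not tested.

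After siPSF, APP and MAPT were lower and SORL1 and CLU were higher, while APLP1, APLP2, PSEN2, BACE1 and ADAM10 gave no call. APP was left at 79.6% and MAPT at 74.2% of the control level, and SORL1 and CLU stood 1.48-fold and 1.53-fold above it. A gene is called here at an adjusted p under 0.05 in edgeR's quasi-likelihood test over 19694 genes. Of the 9 genes 4 were called (44.4%), against 14.9% of all tested genes. The 2 lower genes stand against a background of 8.27% called lower, and the 2 higher genes against 6.65% called higher. In the same 4 genes the siPSF values did not overlap the siControl values, as was the case in 34.4% of all tested genes. The median log2 fold change of the 9 was -0.02, next to 0.01 over all genes tested. The study took up APP and MAPT from earlier reports on their regulation and used APP as a positive control. It also ran its own experiments on target genes of PSF and of G3BP2, another RNA-binding protein. These were qRT-PCR after knockdown in several neuronal lines, assays of mRNA stability and RNA immunoprecipitation, the last with APP pre-mRNA as positive control. In U2OS cells it reported more APP mRNA and protein when PSF and G3BP2 were overexpressed together. The 9 genes were chosen here with earlier results of these data known, so the direction of APP and MAPT is not independent evidence. In cells read in bulk, fewer cells that express a gene and less RNA per cell cannot be told apart.

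**Figure D1:**
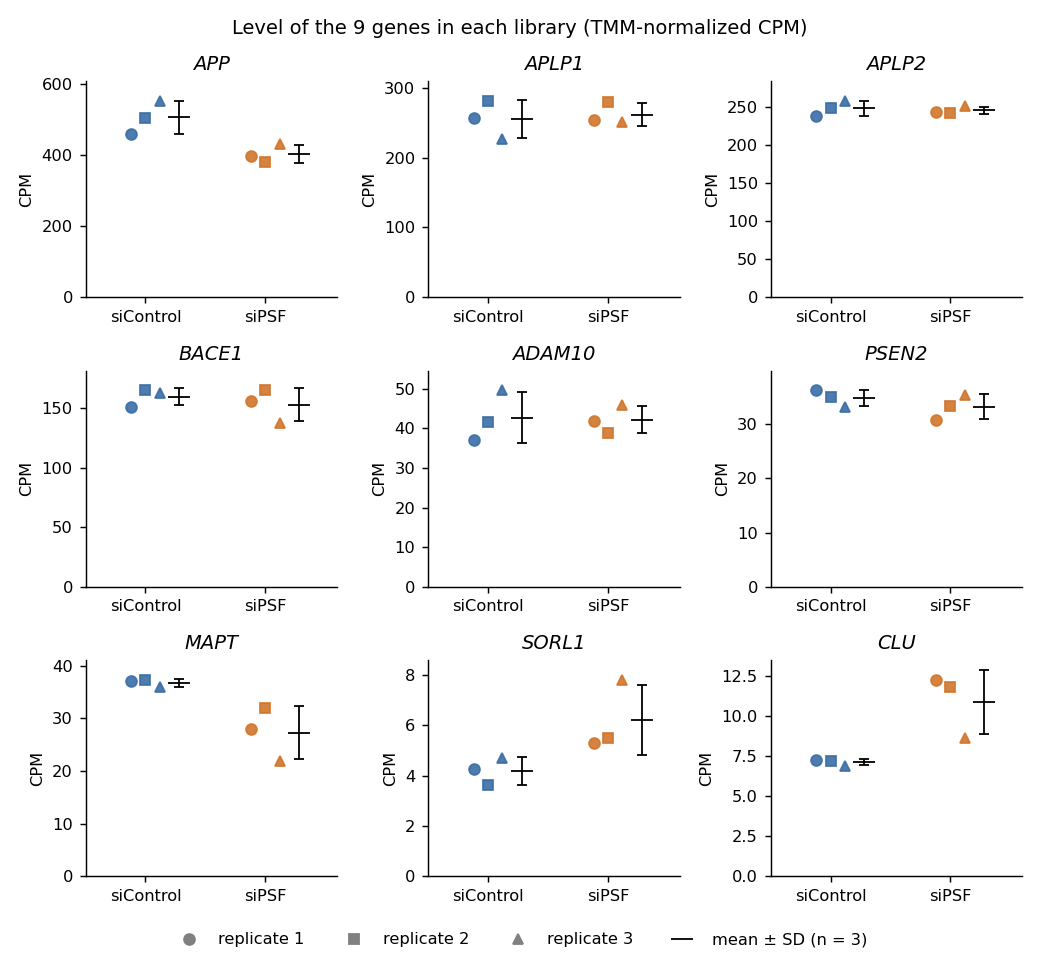
TMM-normalized CPM of each of the 9 genes in the siControl (blue) and siPSF (orange) libraries, on axes that start at 0; the marker shape gives the replicate and the black bar the mean ± SD (n = 3). The groups separate for APP, MAPT, SORL1 and CLU and overlap for the other genes, and the siPSF values of MAPT, SORL1 and CLU spread more widely than their siControl values.

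APP (gene ID 351) spans 291 kb of chromosome 21, from 25880550 to 26171128. Under siControl it was read at 459.6, 504 and 552 CPM, and under siPSF at 396, 381 and 430.1 CPM. The highest siPSF library thus lay below the lowest siControl library, although the gap between them was smaller than the range within either group. The mean went from 505 ± 46.3 to 402 ± 25.4 CPM (SD, n = 3 each). The log2 fold change was -0.33 (standard error 0.0929, 95% interval -0.53 to -0.13), and the call passed with an adjusted p of 0.033 in edgeR's quasi-likelihood test. On the FPKM scale the values were 120.7, 131.8 and 151 in siControl and 100.1, 94.7 and 107 in siPSF, again without overlap. The fall was seen in each of 6 fits that left out 1 library (-0.39 to -0.26), but the call was kept only without siControl replicate 1 or siPSF replicate 3. In the other 4 of these fits the adjusted p was up to 0.11.

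The relatives of APP, which lack the amyloid-beta stretch and are cut by the same secretases, gave no call. APLP1 (gene ID 333, chromosome 19, 35868574 to 35879792) was at 258, 282 and 227 CPM in siControl and at 254.0, 280.5 and 251.5 CPM in siPSF. APLP2 (gene ID 334, chromosome 11, 130069894 to 130144805) was at 238, 249 and 259 CPM in siControl and at 244, 242 and 251.5 CPM in siPSF. The groups overlapped for both genes. The log2 fold change was 0.04 for APLP1 (95% interval -0.17 to 0.24, edgeR adjusted p = 0.84) and -0.01 for APLP2 (95% interval -0.18 to 0.15, edgeR adjusted p = 0.93). Both intervals end short of the estimate for APP, and both overlap its interval.

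To compare the relatives with APP inside each library, where the scaling between libraries plays no part, ratios of counts were taken. The ratio of APP to APLP2 was 1.93, 2.03 and 2.14 in siControl and 1.62, 1.57 and 1.71 in siPSF. The ratio of APP to APLP1 was 1.78, 1.79 and 2.43 in siControl and 1.56, 1.36 and 1.71 in siPSF. Both ratios were lower in each siPSF library than in any siControl library, by 0.31 and 0.37 on the log2 scale. Each reached p = 0.1 in the two-sided exact permutation test, the smallest value that 3 against 3 libraries allow, and 0.3 after adjustment over 6 ratios, so that neither difference could pass the threshold in this design. The ratio of APLP1 to APLP2 differed by 0.05 on the log2 scale (exact permutation p = 0.8, adjusted p = 0.8). Of the FPKM summed over the family, APP took 42.8, 43.4 and 48.4% in siControl and 39.1, 36.8 and 40.9% in siPSF. The share of APLP1 was 33.6% ± 3.61 in siControl and 37.7% ± 2.34 in siPSF, and that of APLP2 was 21.6% ± 0.664 and 23.4% ± 0.347 (SD, n = 3 each).

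The secretase genes gave no call. BACE1 (gene ID 23621, chromosome 11, 117285698 to 117316256) stood at 151.5, 165 and 163 CPM in siControl and at 156, 165 and 138 CPM in siPSF. ADAM10 (gene ID 102, chromosome 15, 58588809 to 58749707) stood at 37.1, 41.55 and 49.6 CPM in siControl and at 41.97, 38.9 and 45.9 CPM in siPSF. PSEN2 (gene ID 5664, chromosome 1, 226870616 to 226903668) stood at 36.25, 34.9 and 33.25 CPM in siControl and at 30.8, 33.4 and 35.45 CPM in siPSF. For all 3 genes the libraries of the groups were interleaved. Their log2 fold changes were -0.06 for BACE1 (95% interval -0.26 to 0.13), -0.02 for ADAM10 (-0.27 to 0.23) and -0.07 for PSEN2 (-0.27 to 0.13), with edgeR adjusted p-values of 0.68, 0.94 and 0.67. These intervals also end short of the estimate for APP and overlap its interval. After the FPKM values were rescaled to the same sum per library, PSEN2 was called lower by limma (-0.29, adjusted p = 0.046). The median over the genes of that fit was shifted by -0.17 from that of the edgeR fit. The ratio of BACE1 to ADAM10, the competing cuts, was 4.09, 3.97 and 3.29 in siControl and 3.72, 4.24 and 3.01 in siPSF (exact permutation p = 0.7, adjusted p = 0.8). The ratio of PSEN2 to NCSTN, another gamma-secretase subunit, was 0.274, 0.240 and 0.239 in siControl and 0.236, 0.227 and 0.276 in siPSF (exact permutation p = 0.6, adjusted p = 0.8).

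MAPT (gene ID 4137) spans 134 kb of chromosome 17, from 45894554 to 46028334. In siControl its CPM values were 37.1, 37.3 and 36.0, and in siPSF they were 28.0, 32.0 and 21.98. The siControl libraries lay close together, and the siPSF libraries spread over a wider range below them, with siPSF replicate 3 lowest. The mean went from 36.8 ± 0.732 to 27.3 ± 5.05 CPM (SD, n = 3 each), or from 6.22 ± 0.0477 to 4.42 ± 0.809 FPKM. The log2 fold change was -0.43 (standard error 0.123, 95% interval -0.70 to -0.16), with an adjusted p of 0.036 in edgeR's quasi-likelihood test. The estimate ran from -0.56 to -0.30 when 1 library was left out, and the call was kept in 1 of these 6 fits, that without siPSF replicate 2. The highest adjusted p of the others was 0.11. The counts are per gene, so splice forms of tau and of APP are not resolved.

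MAP2, the dendritic relative of tau, served as a partner within each library. MAPT stood at 0.255, 0.258 and 0.211 of the MAP2 count in siControl and at 0.174, 0.214 and 0.142 in siPSF. The groups overlapped by 1 pair of libraries, and the mean difference of -0.46 on the log2 scale had p = 0.2 in the two-sided exact permutation test (adjusted p = 0.4). The log2 fold change of MAP2 itself was 0.01 (edgeR adjusted p = 0.94).

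SORL1 (gene ID 6653, chromosome 11, 121452314 to 121633763) was read at 4.24, 3.62 and 4.71 CPM in siControl and at 5.28, 5.50 and 7.79 CPM in siPSF. Every siPSF library was above every siControl library, and siPSF replicate 3 was the highest. The log2 fold change was 0.56 (standard error 0.172, 95% interval 0.19 to 0.94, edgeR adjusted p = 0.046). The gene was weakly expressed, at 0.360 ± 0.0547 FPKM in siControl and 0.502 ± 0.110 FPKM in siPSF (SD, n = 3 each), on 483 to 768 counts per library. Its call was lost in 4 of the 6 fits without 1 library, with adjusted p-values up to 0.20, and remained without siPSF replicate 1 or siPSF replicate 2.

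CLU (gene ID 1191, chromosome 8, 27596917 to 27614700) was read at 7.27, 7.225 and 6.91 CPM in siControl and at 12.3, 11.85 and 8.62 CPM in siPSF. The siControl libraries were tight and all below the siPSF libraries, of which replicate 3 was lowest. The mean went from 7.13 ± 0.196 to 10.9 ± 2.001 CPM (SD, n = 3 each), and the log2 fold change was 0.61 (standard error 0.141, 95% interval 0.31 to 0.92, edgeR adjusted p = 0.013). This was the smallest adjusted p among the 9 genes. The call was lost without siControl replicate 2, siControl replicate 3 or siPSF replicate 1, with an adjusted p of at most 0.061. Without siPSF replicate 3 the estimate was the highest of the 6 fits, 0.76. Clusterin is made in quantity by astrocytes in the brain. Of the 5 astrocyte markers, GFAP and AQP4 were not in the table, ALDH1L1 was at a mean of 0.335 CPM in siControl and 0.468 CPM in siPSF, S100B at 0.356 and 0.546 CPM, and SLC1A2, called lower, at 3.60 and 2.45 CPM. The log2 fold changes of ALDH1L1 and S100B were 0.48 and 0.61 (edgeR adjusted p = 0.39 and 0.25), and their part in the CLU result was not tested.

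**Figure D2:**
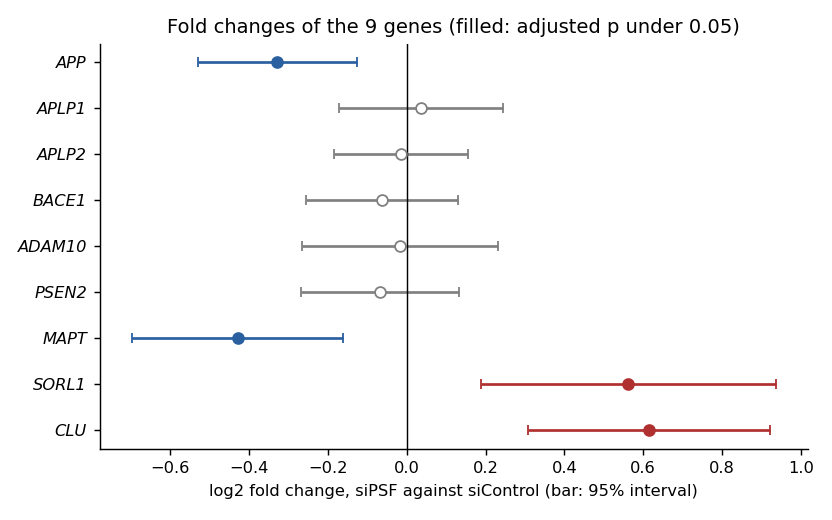
Log2 fold change of siPSF against siControl for the 9 genes, with bars for the 95% interval from the edgeR fit; filled points have an adjusted p under 0.05. APP and MAPT lie below 0, SORL1 and CLU above it, and the intervals of the other 5 genes include 0.

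No call of these 4 genes held in each fit that left out 1 library, and without siControl replicate 2 or siControl replicate 3 none of the 9 genes was called by edgeR's quasi-likelihood test (4 had an unadjusted p under 0.05 in either fit). Over all genes these fits also gave the lowest counts of calls, 1500 and 1754 against 2938. The estimates of the 4 genes kept their sign under all alternatives tried. With no filter on low counts MAPT (adjusted p = 0.053) and SORL1 (adjusted p = 0.077) were no longer called, and on FPKM values, where SORL1 was too low to enter, CLU reached adjusted p-values from 0.040 to 0.081 in limma. After rescaling of FPKM the calls were 3 lower (APP, MAPT and PSEN2) and 0 higher, in place of 2 lower and 2 higher.

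**Figure D3:**
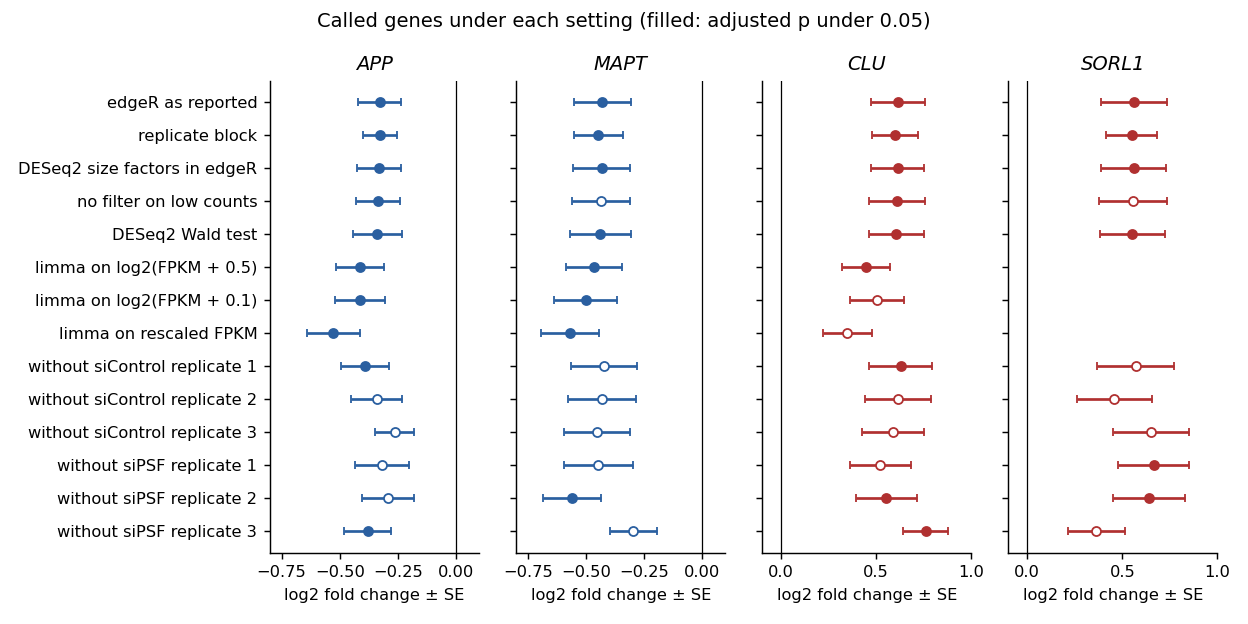
Log2 fold change of APP, MAPT, CLU and SORL1 (± standard error) under each way of processing, one row per setting; filled points have an adjusted p under 0.05, and SORL1 has no point in the 3 limma fits. Every estimate stays on its side of 0, and open points show where the call was lost, mostly in the fits without 1 library.

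The order of the levels per length, as the mean FPKM over 6 libraries, was APP (117), APLP1 (98.6), APLP2 (62.4), BACE1 (24.4), PSEN2 (12.4), MAPT (5.32), ADAM10 (3.67), CLU (2.93) and SORL1 (0.431). Neighbours whose libraries overlapped were APP and APLP1, MAPT and ADAM10, and ADAM10 and CLU. Each of these pairs was separate within siControl and overlapped within siPSF. In siControl APP stood above 97.9% and SORL1 above 21.4% of the tested genes. MAPT, at the 59.9th percentile, was thus a gene of middle level in these cells, and the beta-secretase transcript (86.0th percentile) stood well above that of the alpha-secretase ADAM10 (50.9th percentile). This did not hold for ADAM17, another protease at the alpha site, whose mean of 23.0 FPKM was close to that of BACE1. The count behind 1 FPKM varied between libraries by at most 1.1% for 7 of the 9 genes, but by up to 4.1% for PSEN2 and 6.3% for ADAM10.

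Other genes of APP processing and tau biology were taken from 8 lists, of which 73 of 76 genes were tested. Of these 73, 8 were lower and 1 was higher (12.3% in either direction), and the median log2 fold change was -0.03. The combined share was close to the 14.9% of all tested genes, but the calls lay mostly on the lower side. Over all tested genes 8.27% were called lower and 6.65% higher. The gamma-secretase partners gave no call: of 4 genes 0 passed in edgeR, 0 in DESeq2 and 0 at an unadjusted p under 0.05. Among all tested genes 14.9% were called by edgeR, and 5861 of 19694 had an unadjusted p under 0.05. APH1A, a scaffold subunit, had a log2 fold change of -0.03, and PSENEN, which activates presenilin, one of -0.05. The other proteases at the alpha site gave no call either, with 0 of 2 genes in edgeR, 0 in DESeq2 and 0 at an unadjusted p under 0.05. Of these ADAM17 had a log2 fold change of 0.15. ADAM9 was at 14.8, 13.0 and 12.95 CPM in siControl and at 9.86, 10.2 and 21.5 CPM in siPSF, so its mean in siPSF rested on replicate 3. With all libraries the log2 fold change of ADAM9 was 0.03 (edgeR adjusted p = 0.95), and without siPSF replicate 3 it was -0.43 and the gene was called lower (edgeR adjusted p = 0.020).

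Of 18 adaptors and sorting partners of APP, 3 fell (16.7%) and 15 gave no call (median log2 fold change 0.01), where 14.9% of all tested genes were called in either direction and 8.27% lower. Among protein-coding genes of 300 kb or more, the class of SORCS1 and APBB2, 47.3% were called lower. The APBA and APBB adaptors bind the NPTY stretch shown above, and 1 gene of each family fell. APBB2 was at 55.3, 57.1 and 66.2 CPM in siControl and at 35.4, 32.4 and 35.8 CPM in siPSF (log2 fold change -0.78, edgeR adjusted p = 0.00035). APBA1, an adaptor of the synapse, was at 7.004, 6.12 and 6.42 CPM in siControl and at 4.26, 4.15 and 3.74 CPM in siPSF (log2 fold change -0.69, edgeR adjusted p = 0.0044). SORCS1, a sorting receptor of the same family as SORL1, was at 165, 171 and 181 CPM in siControl and at 79.4, 80.2 and 63.7 CPM in siPSF. Its log2 fold change of -1.21 (edgeR adjusted p = 4.2e-05) was the largest in size in the 8 lists, and opposite in sign to that of SORL1. In all 3 genes the groups were far apart, and each was called in 6 of 6 fits without 1 library. ITM2C, a BRI protein that binds APP, gave 0.23 on the log2 scale (edgeR adjusted p = 0.19), and GGA1, an adaptor of endosomal traffic, gave 0.01.

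Among 8 genes of amyloid-beta degradation and clearance 1 was called (12.5%), which is near the 14.9% of all tested genes called in either direction; it was higher, as were 6.65% of all. MME, which encodes the amyloid-degrading protease neprilysin, was at 0.312, 0.397 and 0.429 CPM in siControl and at 0.631, 0.8715 and 0.984 CPM in siPSF (log2 fold change 1.12, edgeR adjusted p = 0.015). The level was under 1 CPM in every library, and the call was lost without siControl replicate 2 (adjusted p = 0.058). ECE1, another amyloid-degrading protease, and LRP1, an uptake receptor, had log2 fold changes of 0.01 and -0.07. The list of 7 endocytic risk genes also holds a kinase and an integrin adaptor, so not all of them are genes of endocytosis. In this list 1 gene fell (14.3%), where 14.9% of all tested genes were called in either direction and 8.27% lower. PTK2B, a calcium-regulated kinase, was at 25.1, 23.4 and 20.5 CPM in siControl and at 16.4, 16.6 and 12.4 CPM in siPSF (log2 fold change -0.61, edgeR adjusted p = 0.0085). The median of this list was -0.34, which is the value of SYNJ1 (edgeR adjusted p = 0.060, no call), next to 0.01 over all genes tested. PTK2B is 149 kb long. Of protein-coding genes of 100 kb to under 300 kb, 18.7% were called lower, with a median of -0.13. BIN1, a membrane-bending protein, had a log2 fold change of -0.14. FERMT2, an integrin adaptor, was at 145, 134 and 163 CPM in siControl and at 139, 122 and 53.6 CPM in siPSF, where replicate 3 alone was far below the others.

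The enzymes that act on tau gave no call. Of 15 tau kinases and activators 0 passed in edgeR and 0 in DESeq2, and 1 had an unadjusted p under 0.05. GSK3A and CDK5, both kinases of tau, had log2 fold changes of 0.03 and -0.04. Of 10 genes of tau dephosphorylation and folding 0 passed in edgeR and 0 in DESeq2, and 3 had an unadjusted p under 0.05. Over all tested genes 14.9% were called by edgeR, and 5861 of 19694 had an unadjusted p under 0.05. STUB1, a ubiquitin ligase for tau, had a log2 fold change of -0.04, and FKBP4, a co-chaperone, one of -0.19 (edgeR adjusted p = 0.16).

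Of 9 other genes of the microtubule cytoskeleton, 4 fell (44.4%) and 5 gave no call, with a median log2 fold change of -0.12. Over all tested genes 8.27% were called lower, and among protein-coding genes of 100 kb to under 300 kb, the class of MAP4 (238 kb), DCX (118 kb) and MAP1B (102 kb), 18.7% were. MAP1B, a microtubule protein of growing axons, was at 563, 599 and 685 CPM in siControl and at 449, 439.6 and 466 CPM in siPSF (log2 fold change -0.45, edgeR adjusted p = 0.0070). It was called in all 6 fits without 1 library. DCX, the doublecortin gene of immature neurons, changed by -0.49 on the log2 scale (edgeR adjusted p = 0.018), the microtubule stabilizer MAP4 by -0.35 (adjusted p = 0.012) and MAP6 by -0.33 (adjusted p = 0.036). These 3 calls were kept in 2, 4 and 2 of the 6 fits. STMN1 and STMN2, the tubulin-binding stathmins, had log2 fold changes of -0.04 and 0.21.

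**Figure D4:**
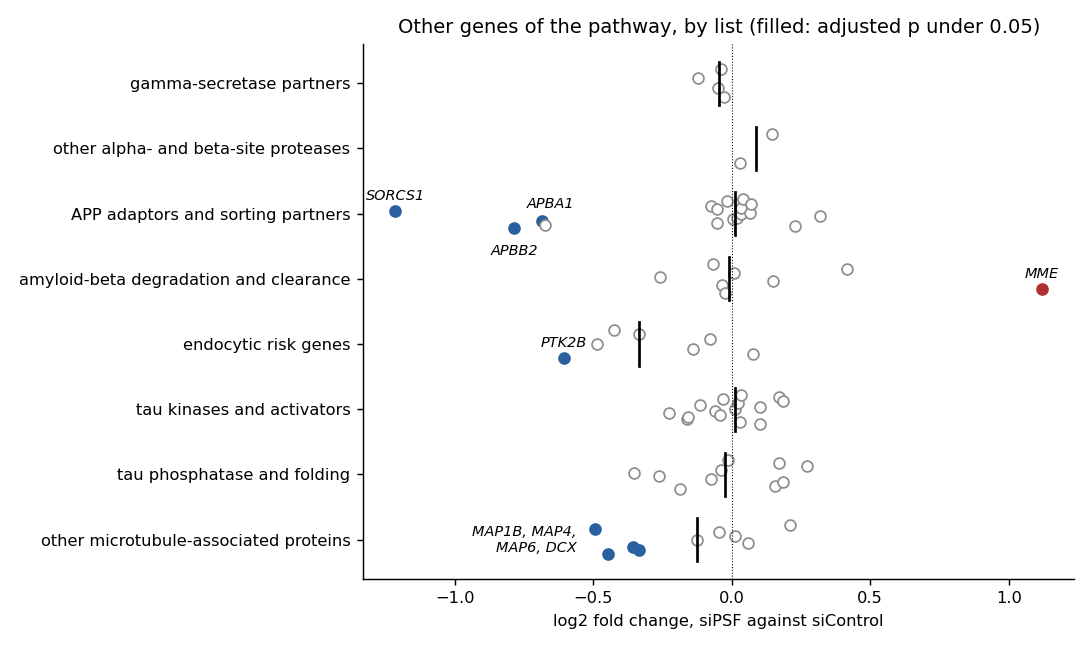
Log2 fold change of siPSF against siControl for 73 genes in 8 lists; each point is a gene, filled where the adjusted p is under 0.05, and the black line is the median of the list. SORCS1, APBB2 and APBA1 are the genes called lower among the APP adaptors, MME is the single gene called higher, and 4 of 9 microtubule genes are called lower.

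Gene length went along with direction in this experiment, and the 9 genes differ widely in length. Of protein-coding genes of 100 kb to under 300 kb, where APP (291 kb), SORL1 (181 kb), ADAM10 (161 kb) and MAPT (134 kb) lie, 18.7% were called lower and 3.11% higher, with a median log2 fold change of -0.13. APP and MAPT were thus further down than that median, ADAM10 lay above it at -0.02, and SORL1 was among the 3.11% that rose. Of protein-coding genes under 50 kb, 8.44% were called higher and the median was 0.06, and CLU (17.8 kb) lay far above it at 0.61. APLP1, PSEN2 and BACE1 belong to this short class too, and APLP2 (74.9 kb) to the class of 50 to under 100 kb with a median of -0.01. The genes called lower among the APP adaptors were long as well, with 607 kb for SORCS1, 405 kb for APBB2 and 245 kb for APBA1. Of protein-coding genes of 300 kb or more, the class of SORCS1 and APBB2, 47.3% were called lower, with a median of -0.44. The middle 50% of that class ran from -0.88 to -0.12. APBB2 (-0.78) lay inside that range and SORCS1 (-1.21) below it. The part of length in the calls was not tested.

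**Figure D5:**
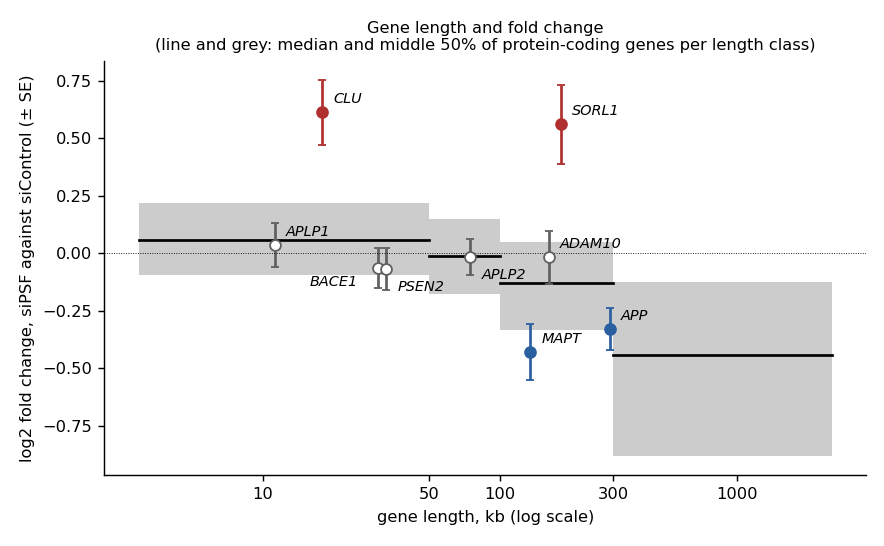
Log2 fold change (± standard error) of the 9 genes against gene length in kb on a log scale; black lines and grey boxes give the median and the middle 50% of protein-coding genes in 4 length classes, the shortest and the longest being open-ended. Filled points have an adjusted p under 0.05. MAPT lies below the grey box of its class, APP at its lower edge, and CLU and SORL1 lie above theirs.

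The genes whose pattern over 6 libraries was most like that of APP were ETS1, AKR1E2 and DTL, with root mean square differences of 0.0212, 0.0283 and 0.0296 on the centred log2 CPM scale, among 10496 genes of at least 10 CPM. Those most like MAPT were GNAO1, FAM222A and PEPD, with differences of 0.0225, 0.0279 and 0.0502. FAM222A, for example, was at 470.1, 489 and 473 CPM in siControl and at 357, 404 and 275 CPM in siPSF, with the same order of siPSF libraries as MAPT.

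Some of the 9 genes share their ground with other genes, and whether strand was used in counting is not stated. RNF214 overlaps BACE1 on the opposite strand and held a count equal to 27.1% of that of BACE1 (log2 fold change -0.10, edgeR adjusted p = 0.46). BACE1-AS, the antisense transcript, held 2.28% (log2 fold change -0.22, edgeR adjusted p = 0.37), and MAPT-IT1 held 1.34% of the MAPT count (log2 fold change -0.48, edgeR adjusted p = 0.30). Reads of BACE1 and of its antisense partners can thus not be fully told apart here. The shares above compare counts of whole genes, and the reads in the shared stretches were not counted, so they do not give the part that is ambiguous.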

How the data were processed

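Poly(A) RNA of SH-SY5Y cells was sequenced in 6 libraries, and groups and replicate numbers were taken from the sample titles. The authors deposited 1 table that pairs raw read counts with FPKM values for 21301 genes in each library; the smallest count is 1, and genes unread in any library are not analysed here. Per the labels, Trimmomatic, HISAT2 2.1.0, StringTie 2.1.3b and the build GRCh38 were used, whereas the paper names Bowtie 2, TopHat and RefSeq on hg38; which made the deposited counts is not settled. The paper calls the length-normalized unit RPKM, and the table calls it FPKM. The kit is named as stranded in the labels only.

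Counts were filtered with filterByExpr (19694 genes left), scaled by TMM and fitted with edgeR 4.0.16 (glmQLFit and glmQLFTest, no replicate block) in R 4.3.3. P-values were adjusted by Benjamini-Hochberg over all genes tested, with calls at an adjusted p under 0.05. The common biological coefficient of variation was 12.6%. The fit was also run on counts simulated with its own dispersions and with changes larger than those of APP and MAPT, so that run does not bear on these 2 genes. Ratios of counts were tested by exact permutation with scipy 1.17.1. No 2 libraries agreed within sampling noise, with a chi-square per degree of freedom of 20.81 or more. Alternatives were DESeq2 1.42.0 (no adjusted p for 2065 genes), its size factors in edgeR, no filter, a replicate block, leaving out each library, and limma 3.58.1 on log2(FPKM + 0.5), on log2(FPKM + 0.1) and on rescaled FPKM, for genes of a mean FPKM of at least 0.5. Such fold changes are on the log2(FPKM + pseudocount) scale and understate changes of low genes.

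The 9 genes and the lists were chosen with earlier results of these data known. Named are all 9, every called gene of the 8 lists, the 2 genes of highest mean FPKM per list, and for APP and MAPT the 3 genes of nearest centred pattern; overlapping genes, markers, NCSTN and MAP2 are named for their role in a check or ratio. BACE2, ECE2 and RIN3 were not analysed here. Gene positions came from RefSeq and coding sequences from the GENCODE transcripts, both on GRCh38.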

Additional observations from a re-analysis of the deposited data

How the results depend on the processing

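Over all genes, 2938 were called, 55.4% of them lower. Leaving out 1 library gave 1500 to 3140 calls, 1500 without siControl replicate 2 and 1754 without siControl replicate 3. Limma on log2(FPKM + 0.5), on log2(FPKM + 0.1) and on rescaled FPKM called 70.3%, 70.5% and 87.7% lower. On rescaled FPKM the median over the genes fitted was -0.16, a shift of -0.17 from the median of the edgeR fit. Relative to that limma median APP stood at -0.37, MAPT at -0.41 and CLU at 0.51. Of the 9 genes, 4 were called; 2 were with no filter and 2 (both lower) with log2(FPKM + 0.1), and 0 to 3 when 1 library was left out: 0 without siControl replicate 2 or siControl replicate 3, 1 without siPSF replicate 1, and 2 without siControl replicate 1 or siPSF replicate 3. Of the 73 other pathway genes 9 were called, 14 (all lower) on rescaled FPKM and 6 to 10 without 1 library.

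Among the 9 genes and the ratios, the estimates that changed sign passed no test in any setting; ADAM9, from the lists, changed sign and was called without siPSF replicate 3. APLP1 stood at -0.0417 on log2(FPKM + 0.5), at -0.0419 on log2(FPKM + 0.1) and at -0.16 on rescaled FPKM, and ran from -0.0458 to 0.10 without 1 library. In those fits APLP2 ran from -0.0455 to 0.0114, BACE1 from -0.12 to 0.0059 and ADAM10 from -0.11 to 0.10, and the log2 ratios of APLP1 to APLP2 from -0.0576 to 0.13, of BACE1 to ADAM10 from -0.17 to 0.0770 and of PSEN2 to NCSTN from -0.11 to 0.0380. The cause was not tested. The ratios of APP to APLP2 (-0.35 to -0.28), of APP to APLP1 (-0.45 to -0.22) and of MAPT to MAP2 (-0.61 to -0.32) kept their sign.

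Deviations of same-numbered libraries correlated at -0.0207, 0.196 and 0.0880, so the numbers were not taken as pairs. With the replicate block 3029 genes were called, among them the same 4 of the 9 and 12 of the other pathway genes. With at least 101540520 counts per library, the spread between libraries, and for SORL1 and MME also their low levels, limits these results.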

Other observations

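Of the 73 other pathway genes, 19 (26.0%) had siPSF values that did not overlap the siControl values, against 34.4% of all tested genes, and 10 of these were not called. The following were chosen after their values were seen. VPS35, the core subunit of the retromer that returns APP and SORL1 from endosomes, was at 134, 107.5 and 128 CPM in siControl and at 151, 140.4 and 169 CPM in siPSF (log2 fold change 0.32, edgeR adjusted p = 0.056). ABCA1, a lipid exporter, was at 3.52, 3.57 and 4.50 CPM in siControl and at 5.02, 5.14 and 5.33 CPM in siPSF (0.42, edgeR adjusted p = 0.069). SYNJ1, a phosphatase of synaptic vesicle recycling, was at 28.0, 31.1 and 32.5 CPM in siControl and at 24.1, 21.3 and 27.2 CPM in siPSF (-0.34, edgeR adjusted p = 0.060). The reelin receptor gene LRP8 was at 30.5, 31.2 and 32.7 CPM in siControl and at 25.3, 25.9 and 27.7 CPM in siPSF (-0.26, edgeR adjusted p = 0.072). None of these 4 passed the threshold.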
